A study of Homo sapiens with 4 samples.

Results

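The 177 protein-coding olfactory receptor genes of human chromosome 11 were examined in nucleosome maps of BE2C cells, written BE(2)C in the study, an established neuroblastoma line in which MYCN is amplified. They were chosen by symbol alone (OR, a family number, letters, a member number and, for some, a final P) from the 20163 protein-coding genes of the GENCODE annotation on GRCh37. Chromatin was cut between nucleosomes with micrococcal nuclease (MNase), and the fragments that nucleosomes protected were sequenced as read pairs. All 4 libraries came from this line. Cells of 2 libraries, labelled wild type, were given a control siRNA, and cells of the other 2, labelled N-myc kd, an siRNA against MYCN, at 80 nM by the labels and at a lower final concentration by the methods of the study. The control siRNA cells are therefore transfected too, and nothing in the labels says whether replicates came from separate cultures, so p-values measure only the spread between these libraries. The assay reports where nucleosomes lie and not transcripts, so neither the fall of MYCN nor a marker of the cell type could be checked in it.

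Olfactory receptors are G protein-coupled receptors of the nasal epithelium, where each sensory neuron uses a single allele of a single receptor gene and keeps the others packed in heterochromatin. Transcription of the chosen gene depends on distant enhancers bound by LHX2, EBF1 and LDB1, and the receptor signals through the G protein subunit GNAL and the adenylyl cyclase ADCY3. Outside the nose most members are silent, which makes the family a common example of closed chromatin. The coding sequence usually lies in a single exon, and the genes stand in tandem clusters. Class I receptors resemble those of fish and class II receptors are typical of land vertebrates.

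By symbol, 57 of the 177 genes were class I (families 51, 52 and 56 here) and 120 were class II. The coding sequence was in 1 part in 172 genes. The median gene span was 1094 bp and 99 spans were under 2 kb, but OR51B5 (202209 bp) and OR9Q1 (157736 bp) had spans over 100 kb. In 40 genes the span overlapped another annotated gene. The transcription start site (TSS) lay within 100 bp of the first coding base in 99 genes, so in those the annotated start may stand for the start of the coding sequence. The genes formed 8 clusters when neighbours less than 1 Mb apart were joined. Cluster 1 held 69 genes from OR52B4 to OR10A3 (chr11:4388493-7963255). Cluster 2 held 7 genes from OR4B1 to OR4A47 (chr11:48238362-48511274). Clusters 3 and 4 held 2 and 3 genes near the centromere, OR4C13 with OR4C12 and OR4A5 to OR4C46. Cluster 5 held 50 genes from OR4A16 to OR5AK2 (chr11:55110677-56757318), and cluster 6 held 21 genes from OR9Q1 to OR10V1 (chr11:57791353-59481318). On the other side of a long stretch without members came OR2AT4 alone as cluster 7 (chr11:74792798-74807921) and cluster 8 with 24 genes from OR6X1 to OR8A1 (chr11:123624288-124452838).

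The stretches printed here show what the maps look like in these genes. The first pair are nucleosomes whose dyads, the centres of the called 147-bp nucleosomes, lay within 10 bp of each other in all 4 libraries. By mean rank of read count they are among the 3 highest of such nucleosomes in members, and the other of the 3, at OR8B8, is described without its sequence. The second pair are the middle 147 bases of the longest stretches that no called nucleosome covered in any library. Each is the GRCh37 sequence read 5′ to 3′ on the gene's strand, and capitals mark runs of at least 5 A or 5 T.
OR6M1, nucleosome in the coding sequence, chr11:123676593-123676739, minus strand: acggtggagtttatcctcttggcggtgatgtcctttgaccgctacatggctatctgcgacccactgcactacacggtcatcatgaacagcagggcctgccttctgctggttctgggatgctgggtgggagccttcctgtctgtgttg
OR8G2P, nucleosome in the coding sequence, chr11:124096112-124096258, plus strand: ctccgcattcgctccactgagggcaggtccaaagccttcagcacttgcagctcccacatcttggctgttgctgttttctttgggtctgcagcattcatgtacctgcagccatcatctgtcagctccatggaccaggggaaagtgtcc
OR10AG1, middle of an uncovered stretch, beyond the gene's end, chr11:55732805-55732951, minus strand: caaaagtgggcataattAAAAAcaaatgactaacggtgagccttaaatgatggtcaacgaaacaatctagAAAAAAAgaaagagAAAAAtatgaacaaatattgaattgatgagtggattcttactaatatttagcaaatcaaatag
OR56B1, middle of an uncovered stretch, beyond the gene's end, chr11:5760306-5760452, plus strand: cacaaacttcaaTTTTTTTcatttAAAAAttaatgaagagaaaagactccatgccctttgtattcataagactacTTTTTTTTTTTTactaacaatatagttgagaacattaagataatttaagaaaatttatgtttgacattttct

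The printed nucleosomes held no such runs and the printed uncovered sequences did. The OR6M1 nucleosome had a GC content of 56.5% and the OR8G2P nucleosome 55.1%. The OR6M1 nucleosome held 30 and 31 reads in the control and 32 and 35 after MYCN knockdown, and the OR8G2P nucleosome 29 and 33 against 30 and 30. Another nucleosome of this kind, in the 3′ untranslated part of OR8B8, had a GC content of 49.7% and held 26 and 38 reads in the control and 22 and 37 after knockdown. The uncovered stretch at OR10AG1 was 916 bp long with a GC content of 24.0%, that at OR56B1 was 748 bp long with 34.6%, and that at OR52N4 was 555 bp long with 25.9%. The stretches at OR10AG1 and OR52N4 reached into the gene span, and that at OR56B1 did not. The nucleosomes named here lie in cluster 8, whose genes averaged 0.505 RPKM (reads per kb, defined below). The uncovered stretches lie at genes of clusters 1 and 5, which averaged 0.242 and 0.227. The choice was not made within clusters, and the part of the read level in it was not tested. OR8G2P also belongs to the genes with repeated coding sequence described below. Over the 177 genes with 1 kb on each side, the longest stretch uncovered in all 4 libraries had a median of 182 bp and a lowest value of 28 bp. Nucleosomes placed within 10 bp in all 4 libraries were few, 45 in the spans of 27 members, where control replicate 1 alone had 3123 called nucleosomes.

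The libraries held 10527010 to 12178724 called nucleosomes. Reads in them numbered 147726171 and 242544884 for the control, and 147370973 and 239257113 for the knockdown. The second replicate of each group was thus deeper, with a median of 18 reads per nucleosome against 12. Only nucleosomes with at least 6 reads were listed, so a place without a listed nucleosome may only be too thinly read, and the second replicates differ from the first in the values that count nucleosomes.

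The level of reads in the olfactory receptor genes differed between control and MYCN knockdown by less than the spread of the replicates. Levels are given as RPKM, the reads per kb of gene span scaled to the reads in called nucleosomes of the library, averaged over genes. They were 0.282 and 0.270 in the control and 0.281 and 0.275 after knockdown, so the groups overlapped. The means were 0.276 ± 0.00866 and 0.278 ± 0.00405 (SD, n = 2 each), a difference of 0.00266 (exact permutation test over libraries, two-sided, p = 1). With 2 libraries a group such an exact permutation test cannot go below p = 0.333, so none of these comparisons could pass 0.05.

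The other measures of nucleosomes in the gene spans were ordered by the depth of the library, and the groups overlapped in them, with the spacing as the exception to both. Nucleosomes per kb numbered 3.62 and 4.27 in the control and 3.65 and 4.31 after knockdown. Reads per nucleosome averaged 11.2 and 15.1 in the control and 10.98 and 15.2 after knockdown. Both were higher in the deeper second replicate of each group, with exact permutation p = 0.667 and p = 1 between the groups. Fuzziness, the SD in bp of the read midpoints around a called dyad, was 34.5 and 35.5 bp in the control and 34.5 and 35.9 bp after knockdown (exact permutation p = 1). The spacing, as the mean distance of neighbouring dyads 100 to 300 bp apart, was 209.1 and 208.4 bp in the control and 208.3 and 208.4 bp after knockdown. Both knockdown values were below both control values (exact permutation p = 0.333, the smallest possible), by 0.432 bp on average, and the difference turned to 2.05 bp higher after knockdown when only distances of 140 to 250 bp were taken.

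**Figure D1:**
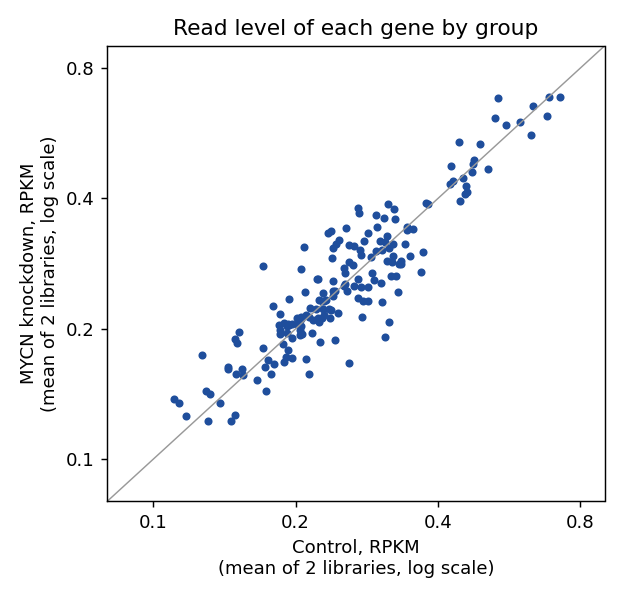
Mean RPKM of each of the 177 genes in the 2 control libraries (x axis) and the 2 MYCN knockdown libraries (y axis), both on log scales, with the line of equal values. The genes lie along the line from the lowest mean, 0.121, to the highest, 0.706.

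Against the other 1140 protein-coding genes of chromosome 11, the receptor genes had lower levels of reads over their spans. The other genes had 0.363 and 0.360 RPKM in the control and 0.349 and 0.349 after knockdown. The receptor genes were lower in 4 of 4 libraries, by 0.36 ± 0.0448 on the log2 scale (0.780-fold; SD, n = 4; exact sign-flip permutation over libraries, two-sided, p = 0.125, the smallest possible with 4). The direction turned when the surroundings were taken into account, with medians over fewer genes in place of means. Relative to the 20 kb on each side outside gene spans, the median receptor gene was above its surroundings. It stood at 1.39 and 1.21 in the control and 1.32 and 1.19 after knockdown (144 genes with enough flank). The median of the other genes was level with their surroundings, at 1.02, 0.994, 1.01 and 0.989 (961 genes). The share of coding sequence in the spans was not matched between the gene sets.

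The level had a step along the chromosome. In 1-Mb bins the median level from 70 Mb to the end was 2.16 and 1.95 times that from the start to 59 Mb in the control, and 2.21 and 1.96 times after knockdown. The GC content of the bins was similar, with medians of 40.7% and 40.1%. The 152 receptor genes of clusters 1 to 6 averaged 0.241 and 0.235 RPKM in the control and 0.241 and 0.241 after knockdown. The 25 genes of clusters 7 and 8 averaged 0.529 and 0.478 in the control and 0.524 and 0.484 after knockdown, 2.10-fold higher (log2 difference 1.07 ± 0.0653, SD over 4 libraries, exact sign-flip permutation p = 0.125). The other genes of chromosome 11 showed the same step, 2.02-fold (log2 1.02 ± 0.0484). Compared with other genes on the same side, the receptor genes were 1.04-fold of them before 60 Mb (log2 0.05 ± 0.0553, higher in 3 of 4 libraries, exact sign-flip permutation p = 0.25) and 1.08-fold after 70 Mb (log2 0.10 ± 0.0628, higher in 4 of 4, p = 0.125 in the same exact test). The lower chromosome-wide level was thus not seen within either side.

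**Figure D2:**
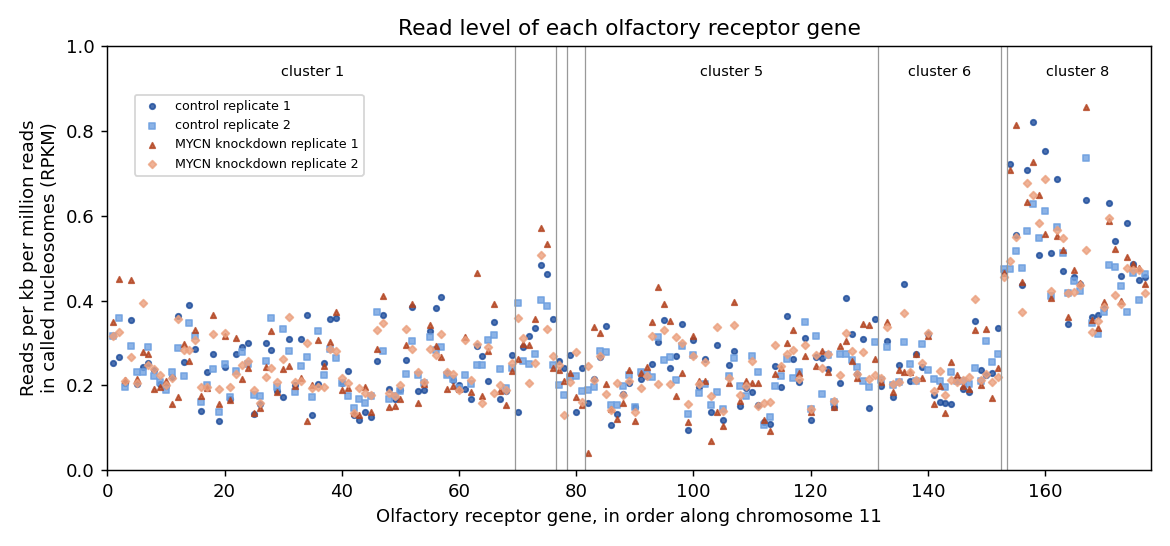
RPKM (y axis) for each receptor gene in order along chromosome 11 (x axis), with 1 point per library and grey lines between clusters. Clusters 1 to 6 average 0.240 and clusters 7 and 8 average 0.504, and the 4 libraries run together.

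Reads per nucleosome carried this step more than the number of nucleosomes. In clusters 7 and 8 a nucleosome held 21.4 reads on average over the libraries, and in clusters 1 to 6 it held 11.7, while nucleosomes per kb were 4.50 and 3.87. Fuzziness was 36.4 bp in clusters 7 and 8 and 34.9 bp in clusters 1 to 6. Class I and class II genes had similar fuzziness, 35.0 and 35.2 bp. The class II mean of 0.293 RPKM was above the class I mean of 0.243, and all 25 genes of clusters 7 and 8 are class II. The 235 olfactory receptor genes on other chromosomes had 0.472 and 0.440 RPKM in the control and 0.471 and 0.442 after knockdown. The chromosome 11 genes were at 0.607 of that level (log2 -0.72 ± 0.0307, lower in 4 of 4 libraries, exact sign-flip permutation p = 0.125).

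The genes at the ends of the range were set apart by cluster, by base composition and by the length of the span. The part of each in the ranking was not tested. The lowest 5 by mean RPKM were all in cluster 5, with spans of 3793 to 5496 bp and 32.3% to 33.6% GC. OR8K3 had 0.110 and 0.125 RPKM in the control and 0.0914 and 0.160 after knockdown. OR10AG1 had 0.0953 and 0.132 in the control and 0.113 and 0.157 after knockdown. OR8H1, OR8J3 and OR8H2 had means of 0.124, 0.127 and 0.134. The highest 5 were all in cluster 8, with spans of 935 to 999 bp and 46.6% to 52.1% GC. OR6T1 had 0.822 and 0.628 in the control and 0.726 and 0.649 after knockdown. OR8G2P had 0.637 and 0.736 in the control and 0.856 and 0.519 after knockdown, so its replicates differed by more than the group means. OR10G6, OR4D5 and OR6M1 had means of 0.652, 0.645 and 0.608. The SD of a gene over the 4 libraries had a median of 0.0335, and the SD between genes was 0.116.

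Level rose with GC content across the genes, by an amount that depended on which genes were taken. Over all 177 the correlation of mean RPKM with GC content was r = 0.515 (Spearman's rho = 0.652), and over the 99 with spans under 2 kb it was r = 0.423 (rho = 0.584), or r = 0.236 (rho = 0.280) for the level relative to the gene's cluster region. Over the 152 genes of clusters 1 to 6 the correlation with mean RPKM was r = 0.778 (rho = 0.841), and over the 24 genes of cluster 8 it was r = 0.886 (rho = 0.914). These are descriptions across genes that share libraries, depth and neighbourhood. MNase cutting and amplification both depend on base composition, and their part in the relation was not tested. Sequence shared between genes is a further limit, since reads with a low mapping quality had been removed. In 59 genes over 10% of the 31-base words of the coding span occur more than once on chromosome 11, up to 69.7% in OR51A2 and OR51A4 and 67.4% in OR8B2 and OR8B3. The values of these genes may be affected, to an extent that was not measured, and other chromosomes were not searched for copies. OR8G2P, whose nucleosome is printed above and whose level is among the highest, is among the 59. So are OR8H1, OR8J3 and OR8H2 from the low end of the range. As a group the 59 genes averaged 0.282 RPKM and the rest 0.275.

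**Figure D3:**
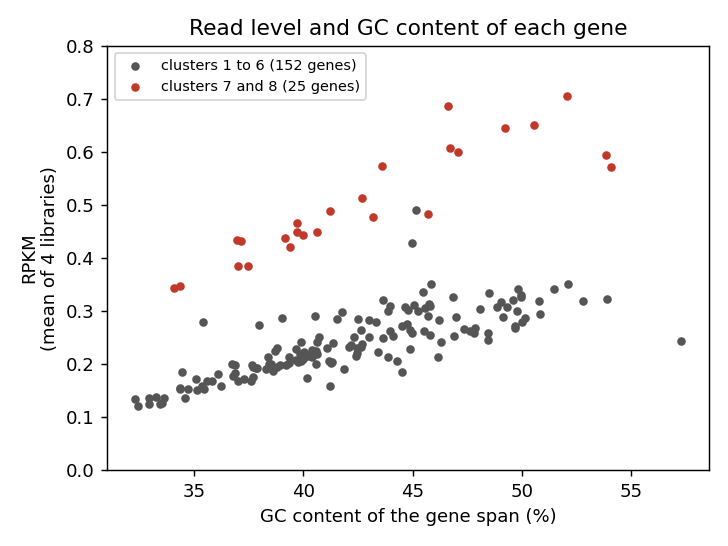
Mean RPKM over 4 libraries (y axis) against the GC content of the gene span in percent (x axis), with 1 point per gene. Within clusters 1 to 6 (grey) and within clusters 7 and 8 (red) the level rises with GC content, and most red points sit above the grey ones at equal GC.

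Within the genes, reads were concentrated on the coding sequence. In the 172 genes with an undivided coding part, the coding span had 0.347 and 0.312 RPKM in the control and 0.340 and 0.316 after knockdown. The 1 kb before it had 0.185 and 0.204 in the control and 0.176 and 0.203 after knockdown. The 1 kb after it had 0.174 and 0.205 in the control and 0.174 and 0.199 after knockdown. The coding span was 1.71-fold of the sequence before it (log2 0.78 ± 0.176, SD over 4 libraries) and 1.75-fold of the sequence after it (log2 0.81 ± 0.200), higher in 4 of 4 libraries each (exact sign-flip permutation p = 0.125, the smallest possible). The ratio to the sequence before it was 1.87 and 1.93 in the first replicates and 1.53 and 1.56 in the second. With all libraries thinned to the same number of reads it ran from 1.73 to 1.93. In single genes the coding span was above both neighbours in 138 to 153 of the 172.

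The same held against the rest of the gene. In the 69 genes with 2 to 50 kb of span outside the coding sequence, that remainder had 0.210 and 0.225 RPKM in the control and 0.208 and 0.229 after knockdown. The coding span of those genes had 0.373 and 0.343 in the control and 0.357 and 0.334 after knockdown, 1.61-fold higher (log2 0.69 ± 0.136, exact sign-flip permutation p = 0.125). GC content moved with it. It was 46.3% in the coding spans, 35.6% in the 1 kb before, 35.4% in the 1 kb after and 36.6% in the rest of the gene, and its part in the difference was not tested.

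**Figure D4:**
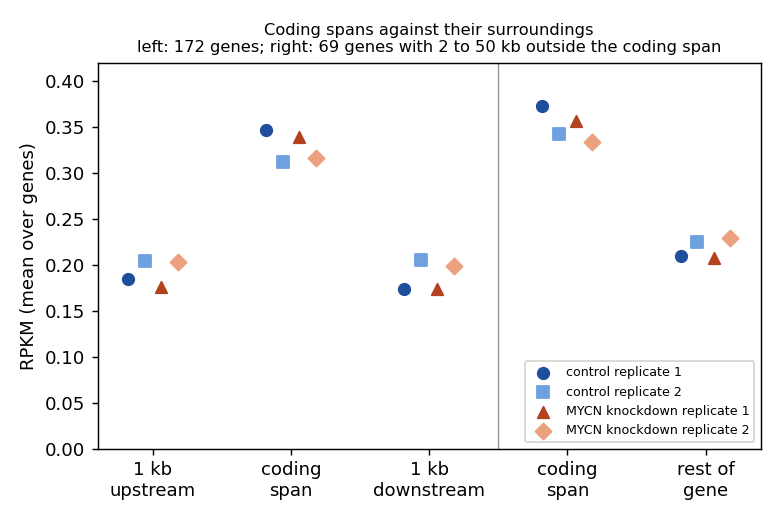
Mean RPKM (y axis) in the coding span, the 1 kb on each side of it (left) and the rest of the gene (right), with 1 point per library. In all 4 libraries the coding span, at 0.312 to 0.347 on the left, is above the 1 kb before and after it.

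At the TSS the receptor genes lacked the pattern of active promoters. Genes in use have a nucleosome-free region (NFR) just before the start, followed by a well-placed first nucleosome. The reads from 200 bp before to 50 bp after the TSS, relative to the mean of the flanks within 1 kb, stood at 0.986 and 0.941 in the control and 0.948 and 0.976 after knockdown for the receptor genes. They stood at 0.658 and 0.635 in the control and 0.624 and 0.631 after knockdown for the other genes of chromosome 11, and at 0.124, 0.137, 0.176 and 0.152 for 34 housekeeping genes of the chromosome such as RPS3, a ribosomal protein gene. The receptor genes were 0.326 ± 0.0159 above the other genes, in 4 of 4 libraries (exact sign-flip permutation p = 0.125). From 30 tissue-restricted genes of the chromosome, such as HBB and TYR, which had 0.864 to 1.10, they differed by less than the spread over libraries (difference -0.0331 ± 0.115, p = 0.625 in the same exact permutation test). Control and knockdown values of the receptor genes differed by less than the replicates did (0.963 ± 0.0318 and 0.962 ± 0.0196, exact permutation p = 1).

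The shape differed as well. The other genes had their highest 50-bp bin at 125 bp after the TSS in 4 of 4 libraries, at 2.15 to 2.38 times the mean bin, and the housekeeping genes had theirs there too, at 3.94 to 5.15 times. The 30 tissue-restricted genes had theirs at 75 bp in 4 of 4 libraries, at 2.15 to 3.89 times. In the receptor genes the highest bin stood at 1.59 to 1.73 times the mean, at 425 bp or 825 bp in the control and 825 bp or 475 bp after knockdown, so no position was shared by the 4 libraries. Receptor genes of other chromosomes had theirs at 25 to 725 bp, at 1.33 to 1.54 times. Reads in the downstream flank exceeded the upstream flank 1.63 and 1.35 times in the control and 1.56 and 1.35 times after knockdown. In other genes this ratio was 1.03 to 1.10. It was 1.19 to 1.36 in receptor genes of other chromosomes and 1.08 to 1.32 in the tissue-restricted genes. The downstream side of a receptor TSS often is coding sequence, which had the higher level and GC content given above. Its part in the ratio was not tested. With the first coding base as the anchor, the window of the receptor genes was lower, 0.736 to 0.815, and was below that of other genes, 0.898 to 0.942, so the direction of this comparison depends on the anchor.

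**Figure D5:**
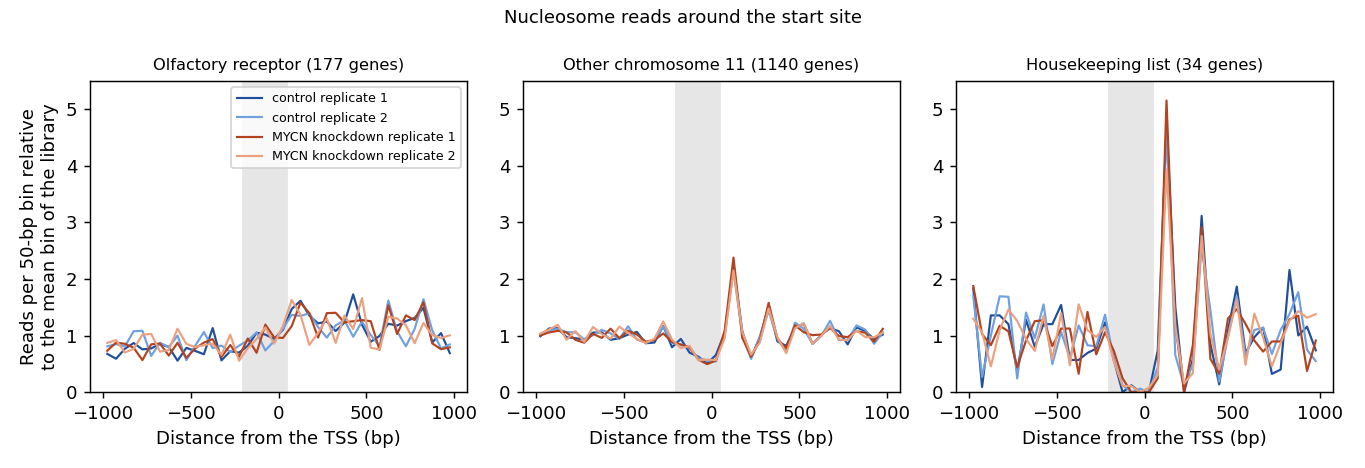
Reads per 50-bp bin relative to the mean bin of the library (y axis) against the distance from the TSS in bp (x axis), averaged over genes, with 1 line per library and the NFR window in grey. Other genes and housekeeping genes peak at 125 bp after the TSS, and the receptor genes have no peak that the 4 libraries share.

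Counted by gene, NFRs were less frequent in receptor promoters than in the other genes of chromosome 11, though not than in the gene sets most like them. A promoter was taken to have an NFR when no nucleosome lay at least 80% inside the window from 200 bp before to 50 bp after the TSS. This held for 46.3% and 35.0% of receptor promoters in the control and 50.3% and 36.2% after knockdown. The other genes of chromosome 11 had 61.0% and 53.3% in the control and 62.3% and 52.8% after knockdown, and the housekeeping genes 85.3% to 97.1%. The receptor promoters were 15.4 ± 2.71 percentage points below the other genes, in 4 of 4 libraries (exact sign-flip permutation p = 0.125), and 5.83 points above them with the first coding base as the anchor. They were 8.97 ± 4.19 points above the olfactory receptor promoters of other chromosomes, in 4 of 4 libraries (exact sign-flip permutation p = 0.125), and 6.12 ± 10.3 points above the 30 tissue-restricted genes, in 3 of 4 (p = 0.375 in the same exact test). The receptor genes of other chromosomes had more reads, with a mean of 0.456 RPKM beside 0.277. In the control the NFR share was 47.4% and 34.9% in clusters 1 to 6, and 40% and 36% in clusters 7 and 8, where the level was higher. After knockdown it was 55.9% and 36.8% against 16% and 32%. The part of the read level in these NFR differences was not tested. The deeper second replicates had fewer NFRs in each group. The groups overlapped (40.7% ± 7.99 and 43.2% ± 9.99, SD, n = 2 each, exact permutation p = 0.667), with SDs that include this difference in depth. Between same-numbered libraries, which are of like depth, the share was 3.95 and 1.13 points higher after knockdown, and these 2 pairs were not tested. A receptor promoter without a nucleosome at this depth may hold one below 6 reads.

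Few receptor promoters kept their state in all libraries. An NFR was called in all 4 libraries in 18 of the 177 (10.2%, beside 32.3% of all promoters) and in none in 33 (18.6%, near the 19.96% of all promoters). The GC content of the window fell from 43.6% ± 6.61 (SD over genes) in the 33 promoters never called to 32.0% ± 5.28 in the 18 always called. Between control and knockdown replicates 1, the NFR was lost in 24 receptor promoters and formed in 31, which is 31.1% of them. Between replicates 2 it was lost in 35 and formed in 37, or 40.7%. Between the control replicates the state differed in 41.8% and between the knockdown replicates in 40.1%, and these replicates differ in depth while the same-numbered libraries do not, so the pairs are not matched for depth. Among all 20080 promoters with reads the same 4 comparisons gave 23.6%, 26.8%, 26.8% and 27.1%.

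By the rule that both libraries of a group must have the NFR and neither of the other, 10 receptor promoters lost an NFR after knockdown, of 35 with an NFR in both controls (28.6%). Over all promoters this was 5.26% (445 of 8461). In the other direction 7 receptor promoters gained an NFR, of 41 with an NFR in both knockdown libraries (17.1%), and over all promoters this was 5.61% (480 of 8558). The share with loss depended on the setting. With all libraries thinned to the same number of reads it was 14.04% (8 of 57, all promoters 4.72%), and at the first coding base it was 11.1% beside 10.8% of all promoters. The share with gain was 17.5% (all promoters 5.08%) and 17.9% (all promoters 10.1%) in those settings. None of these shares was tested against the background. The 10 with loss were OR51L1, OR52H1, OR52E8, OR52L1, OR4P4, OR4C6, OR5AR1, OR6T1, OR8G5 and OR8A1. The 7 with gain were OR52B4, OR51E1, OR5W2, OR5AS1, OR1S1, OR4D9 and OR6M1. OR51E1 is a receptor also known from prostate tissue. The nucleosomes that decided these calls were weak. At OR52E8 the nucleosome at least 80% inside the window held 7 and 7 reads in the 2 knockdown libraries. At OR4C6 it held 6 and 8. The controls had no nucleosome that far inside at either gene. Their windows were not all empty, since a nucleosome lay 25.9% inside at OR52E8 in control replicate 1. At OR4C6 a nucleosome lay 25.2% inside in control replicate 2. The strongest were at OR8A1, with 20 and 21 reads, and at OR6T1, with 10 and 25. In OR6T1 a nucleosome of each control library lay 67.3% and 69.4% inside the window, below the limit of 80%.

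The windows around receptor starts differ in sequence from those of other genes. Their median GC content was 38.2% and their median number of CpG dinucleotides was 1, whereas the windows of other chromosome 11 genes had 64.5% and 20. Runs of at least 5 A or 5 T took 3.09% of the bases in receptor windows and 0.810% in the others. TAATTA, the core of a homeodomain site of the LHX2 type, was found in 32 of the 177 windows of 251 bp (18.1%, others 2.54%). TATAAA was found in 55 (31.1%, others 9.04%). CCCNNGGG, the core of an EBF site, was found in 12 (6.78%, others 21.3%), and CACGTG, the E-box that MYCN binds, in 1 (0.565%, others 6.75%). Both strands were searched, and the part of base composition in these shares was not tested.

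No receptor gene passed edgeR's quasi-likelihood test of knockdown against control, fitted on the groups alone. In promoters from 2 kb before to 1 kb after the TSS, 0 of 20106 passed an adjusted p of 0.05 (0%), and 633 had an unadjusted p under 0.05 (3.15%). Among the 177 receptor promoters 0 passed and 5 had an unadjusted p under 0.05 (2.82%), a share near the background. DESeq2 also called 0, with 207 unadjusted among all promoters and 2 among the receptors. Their log2 changes ran from -0.61 to 0.83, with a median of 0.04 beside -0.000197 over all promoters. The change was above 0 in 104 of 177, where 50% of all promoters were above 0. With a correction for GC content in each library the median was -0.02 and 82 were above 0. Over 20088 promoters log2 change and GC content correlated by r = -0.196, and the median GC content was 37.7% in receptor promoters and 52.5% in all. The part of base composition in the tilt was not tested.

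The 5 receptor promoters with the smallest unadjusted p are given as values, since none passed the adjusted test. OR8B8 had 147 and 206 reads in the control and 200 and 332 after knockdown, with a log2 change of 0.61 (edgeR unadjusted p = 8.83e-05, adjusted p = 0.999). OR8D4 had 203 and 308 reads in the control and 149 and 248 after knockdown (log2 -0.34). OR52N1 had 41 and 91 reads in the control and 86 and 122 after knockdown (log2 0.74). OR5AK3P (log2 0.58) had 55 and 116 against 103 and 137, and OR8H1 (log2 0.83) had 35 and 64 against 62 and 110. Divided by the reads of the library, the control and knockdown values of these 5 did not overlap, which is what a small p selects. The share of all promoters without overlap was not computed, so this is no result about these 5.

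Whole gene spans gave the same count. In edgeR, 0 of 20088 spans passed (0%) and 418 had an unadjusted p under 0.05 (2.08%). Of the receptor genes 0 passed and 2 were under 0.05 unadjusted (1.13%), while DESeq2 had 59 and 0. The change was above 0 in 100 of 177 receptor spans beside 48.5% of all spans, and in 93 with the correction for GC content (median 0.00698). OR51A4, which has a near-identical copy, had 82 and 159 reads in the control and 110 and 219 after knockdown (log2 0.48). OR4D9 had 315 and 578 in the control and 234 and 462 after knockdown (log2 -0.33). OR4C16 (log2 -0.66), OR51I2 (0.38) and OR5L1 (0.53) followed, with edgeR's adjusted p = 0.994 for each of the 5.

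The genes that serve olfactory signalling and receptor choice did not pass either. Of 20 listed genes, 0 passed in promoters and 0 in gene spans. In promoters the log2 changes ran from -0.39 to 0.20, with 12 above 0 and 8 below. REEP1, which helps receptors reach the cell surface, had the lowest, with 145 and 225 reads in the control and 93 and 186 after knockdown (edgeR unadjusted p = 0.025). OMP, the marker protein of mature olfactory neurons, and CNGA4, a subunit of the olfactory ion channel, both lie on chromosome 11 and had promoter log2 changes of -0.10 and 0.02. In gene spans the 20 genes ran from -0.13 to 0.08.

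Nucleosome positions in receptor genes were compared between libraries. For each pair of libraries, the share of nucleosomes with a partner in the other library within 20 bp was taken in both directions. In receptor genes it was 29.3% between replicates and 29.4% between control and knockdown libraries (4 pairs). Replicates of a group differ in depth. Of the pairs across groups, those of like depth had 30.1% and 29.8%, and those of unlike depth had 29.4% and 28.2%. In other chromosome 11 genes it was 36.6% and 36.9%, and the gap between the gene sets was not tested. Nor was it split by the side of the chromosome, on which the level of reads depends. The share without a partner overlapping by more than 30 bases was 20.5% between replicates and 19.7% across groups in receptor genes, and 16.7% and 15.9% in other genes. Fuzziness differed between receptor genes and others by less than its spread (difference 0.0178 ± 0.363 bp, higher in 3 of 4 libraries, exact sign-flip permutation p = 0.875).

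The share of long gaps between neighbouring nucleosomes was higher than in other genes in 4 of 4 libraries. Of the distances between neighbouring dyads in receptor genes, 33.2% and 19.4% in the control and 32.3% and 19.1% after knockdown were over 300 bp. In other genes the shares were 24.3%, 15.3%, 24.4% and 15.1%. The deeper second replicates had fewer long gaps in both gene sets. Of the 177 receptor genes, 152 lay on the side of chromosome 11 with the lower level. Of the other genes, 423 lay before 60 Mb and 429 after 70 Mb. The gaps were not compared within each side, and the part of the read level in the difference was not tested. Fuzziness in single genes ranged from a mean of 30.4 bp in OR4A16 to 40.2 bp in OR5F1. OR4A16 had 32.1 and 36.6 bp in the control and 16.9 and 35.9 bp after knockdown, and the low value came from knockdown replicate 1, where 1 nucleosome of 6 reads was all that was called and the level was 0.0412 RPKM. OR52M1 (31.1 bp), OR4P4 (31.4), OR4B1 (31.8) and OR5D18 (32.0) followed at the low end, and OR51F1 (40.05), OR4C5 (39.6), OR6X1 (39.3) and OR4C3 (38.3) at the high end. The SD over libraries of a gene's fuzziness, which includes the difference in depth, had a median of 1.92 bp. The SD between gene means over the 4 libraries was 1.56 bp. The first is a spread of single libraries and the second a spread of means. How well genes can be ranked by fuzziness was not tested.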

How the data were processed

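The authors trimmed the reads, mapped them to hg19, kept proper pairs, removed duplicates and called nucleosomes in each library with Genetrack. The submitters' processing notes name CASAVA 1.9, Trim Galore 0.4.4 and Bowtie2 2.2.4. The deposited counts give the read-pair midpoints of each called nucleosome, from 6 up, and the fuzziness deposited by the authors is their SD in bp. Groups came from the sample titles. Gene levels were computed here as RPKM, reads per kb scaled to the listed reads, from nucleosomes whose dyad lay in the gene. Genes and coding spans came from GENCODE release 44 on GRCh37, whose chromosome lengths hold all deposited positions. Changes were tested with edgeR 4.0.16 (R 4.3.3), TMM scaling and Benjamini-Hochberg adjustment over all promoters or spans with a mean of at least 10 reads, with DESeq2 1.42.0 as an alternative, after a test on simulated data. Gene sets were compared within libraries. Named genes were the 5 at each end of level and fuzziness, the 5 with the smallest p, those with NFR loss or gain, cluster ends, and the 3 with the strongest shared nucleosomes or longest gaps. The members and lists were chosen with earlier results of these data known. Intervals were not computed, and p-values rest on 2 libraries a group.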

Additional observations from a re-analysis of the deposited data

How the results depend on the processing

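A difference counted as unchanged when it moved by no more than the spread used for it. A count did so when it equalled the reported count or lay within a fixed ratio of it. The log2 change of a named gene did so when it kept its sign and did not pass the test. By these rules, of 325 alternative values for 35 results, 269 were unchanged. Of these, 18, over 7 results and 14 of them with 1 library left out, had the opposite sign to the reported value, such as a control-knockdown difference of 1.89 reads per nucleosome without control replicate 2 where -0.0920 is reported, and -4.52 points of NFR share without knockdown replicate 1 where 2.54 is reported. With 1 library left out, the groups compared are of unlike depth, so those values cannot settle a sign. Between same-numbered libraries, which are of like depth, knockdown minus control was -0.206 and 0.0219 reads per nucleosome. For the NFR share it was 3.95 and 1.13 points. These differences were not tested by pair, and their sign is not settled here. The cause was not tested for any of the following. Scaling to the reads of chromosome 11 put the control-knockdown difference in RPKM of receptor genes at 0.0942, on a scale that is larger in proportion. The spacing difference was -1.16 bp at equal depth, -2.55 in coding spans, 2.05 with distances of 140 to 250 bp and 1.07 with medians over genes.

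Against other chromosome 11 genes, the log2 difference in RPKM was -0.50 with a minimum of 10 reads and -0.16 in coding spans. It was 0.34 relative to the flanks with medians over genes, 0.0507 before 60 Mb and 0.10 after 70 Mb. Nucleosomes per kb differed by -0.279 at equal depth, -0.471 with a minimum of 10 reads, 0.175 in coding spans and -0.233 with medians. Spacing differed by 0.228 bp with a minimum of 10 reads, 1.67 in coding spans, -0.341 with distances of 140 to 250 bp and -0.446 with medians. The TSS window differed by 0.346 at equal depth, 0.347 with a minimum of 10 reads, 0.235 at the most upstream TSS, -0.127 at the first coding base and 0.352 with each gene scaled to its own mean. The NFR share differed by -12.0 points at equal depth, -6.07 with a minimum of 10 reads, -11.4 at the most upstream TSS and 5.83 at the first coding base.

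NFR loss was counted in 6 receptor promoters with nucleosomes 50% inside and in 4 at the first coding base, and NFR formation in 4 with 50% inside. Leaving out 1 library gave 12 to 22 losses and 9 to 21 formations, since fewer libraries had to agree, with 22 and 20 losses without control replicate 1 or 2 and 21 formations without control replicate 1 or either knockdown replicate. The position match across groups minus that of replicates was 0.234 points within 10 bp and -1.05 within 40 bp.

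With the replicate block, losses averaged 29.5 and formations 34 per same-numbered pair, and the position match differed by 0.631 points. In edgeR the replicate block gave 0 promoters and 2049 gene spans, of which 1 was a receptor gene, OR4D9 (adjusted p = 0.0374), and 137 spans and 0 receptor genes with a GC correction as well. Same-numbered libraries share only a number in the labels, and their deviations correlated by 0.285 in promoters and 0.327 in spans. The median log2 change of receptor promoters minus that of all was -0.0183 with the GC correction, -0.0196 with the GC correction and the replicate block, and 0.00261 to 0.11 without 1 library, lowest without control replicate 1. For spans it was 0.0380 with the replicate block, 0.0372 with DESeq2, 0.0111 with the GC correction, 0.0119 with both, and 0.0222 to 0.0452 without 1 library. Leaving out 1 library gave 0 to 1 promoters called, the 1 without knockdown replicate 2 and no receptor gene. With 1 library left in a group its spread is taken from the other group.

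The depth of 6 or more reads per listed nucleosome limits all counts of NFRs, gaps and matched positions. Levels in RPKM count only reads in listed nucleosomes, so the limit bears on contrasts of level too. The ratio of the coding span to the 1 kb before it was 1.87 and 1.93 in the first replicates. In the deeper second replicates it was 1.53 and 1.56. The part of the limit in such contrasts was not tested.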
